A study of Mus musculus with 48 samples.

Results

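Ribosome footprints of mouse liver were compared between ZT0, the moment the lights came on, and the hours on either side of it. Zeitgeber time (ZT) counts hours from lights-on. The contrast set the 2 footprint libraries of ZT0 against the 8 of ZT20, ZT22, ZT2 and ZT4, called flanking pools here, with total RNA of the same 10 pools beside it, so that 20 of the 48 libraries entered it. Among 5996 tested genes, those averaging 5 RPKM or more in each assay, 89 dipped and 132 rose by a rule of shape. RPKM is a read count scaled to gene length and library size. A gene counted as dipping (or rising) when both ZT0 footprint libraries lay below (or above) all 8 flanking libraries, the fitted difference was at least 1.3-fold, and ZT0 also departed in that direction from a 24 h cosine curve. A stricter form of the rule, which also asked for an adjusted p under 0.05 in both the contrast and the departure, left 4 dipping and 2 rising genes. Since this was fewer than 10, the p criteria were dropped. "Dipping" and "rising" are therefore names for a shape and not the outcome of a test, and the footprint values of these genes are given as a description.

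All animals were male C57BL/6JRj mice aged 11 to 12 weeks, kept for 2 weeks in 12 h of light and 12 h of darkness and killed under the same schedule, with no treatment and no genetic change named in the labels. Each replicate of an hour was a lysate pooled from 2 livers, and both assays were made from that lysate. Ribosome profiling sequences the mRNA fragments that ribosomes shield from nuclease, so footprints report ribosomes on a coding sequence and total RNA reports the transcript. Feeding times are not given in the labels.

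As background, mice eat mainly in the dark and the liver changes between fed and fasted programs around dawn. Transcripts for ribosomal proteins and elongation factors carry a pyrimidine tract at their 5′ end and are taken up into polysomes when mTORC1 is active, as after a meal. Ferritin mRNAs carry an iron-responsive element in the 5′ untranslated region, which iron regulatory proteins bind when iron is scarce, and this blocks initiation.

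The ZT0 footprint libraries held about 15.97 and 18.2 M reads and the ZT0 total RNA libraries about 14.7 and 11.9 M, within the ranges of 13.0 to 44.7 M and 3.68 to 25.9 M over all libraries. Some pools stood apart. Pancreatic acinar transcripts summed to 7.55 and 10.9 RPKM in the ZT0 footprint libraries but ranged from 6.37 to 1740 RPKM in the flanking ones, and in both ZT2 pools and ZT4 replicate 1 they exceeded 10 times the median pool in total RNA. Total RNA of ZT22 also differed from its own neighbours, with 841 genes called lower and 812 higher when the same contrast was centred there. ZT0 replicate 2 held more blood and duct transcripts than ZT0 replicate 1. Summed lymphocyte and neutrophil markers stood at 38.5 against 4.23 RPKM in footprints (flanking pools 8.78 to 21.4), cholangiocyte markers at 95.8 against 46.8 (37.3 to 50.1), Kupffer cell markers at 814 against 540 (595 to 726) and erythroid markers at 774 against 298 (314 to 545). Hepatocyte markers stood at 92332 and 90447 RPKM in ZT0 total RNA and at 90680 to 125577 in the flanking pools. The part of these pools in the results was not tested beyond the values given without them.

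Footprints at ZT0 lay below all 8 flanking pools for 345 genes (5.75%) and above them for 353 (5.89%), and after the fold and curve conditions 1.48% dipped and 2.2% rose. In total RNA, 220 genes (3.67%) lay below and 195 (3.25%) above. By limma with Benjamini-Hochberg adjustment over all 5996 genes, 10 genes (0.167%) were called lower and 9 (0.15%) higher in footprints, and 19 (0.317%) lower and 11 (0.183%) higher in total RNA, where 0.5% were called in either direction. The 10 genes called in both assays were 10 of the 19 footprint calls and 10 of the 30 total RNA calls. The total RNA calls rest on few pools. Leaving out either ZT0 pool left 0 calls, a fit to the 10 pools of the contrast alone gave 0, and leaving ZT22 out of the flanks left 6 of 30 (Igfbp1, Pde4b, Hspa1b, Dnajb4, Nr1d1 and Dbp). No gene passed for the difference between the assays (0%; limma interaction, 545 genes at an unadjusted p under 0.05), nor when footprints and total RNA were paired by lysate (0%; 1062 at an unadjusted p under 0.05).

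**Figure D1:**
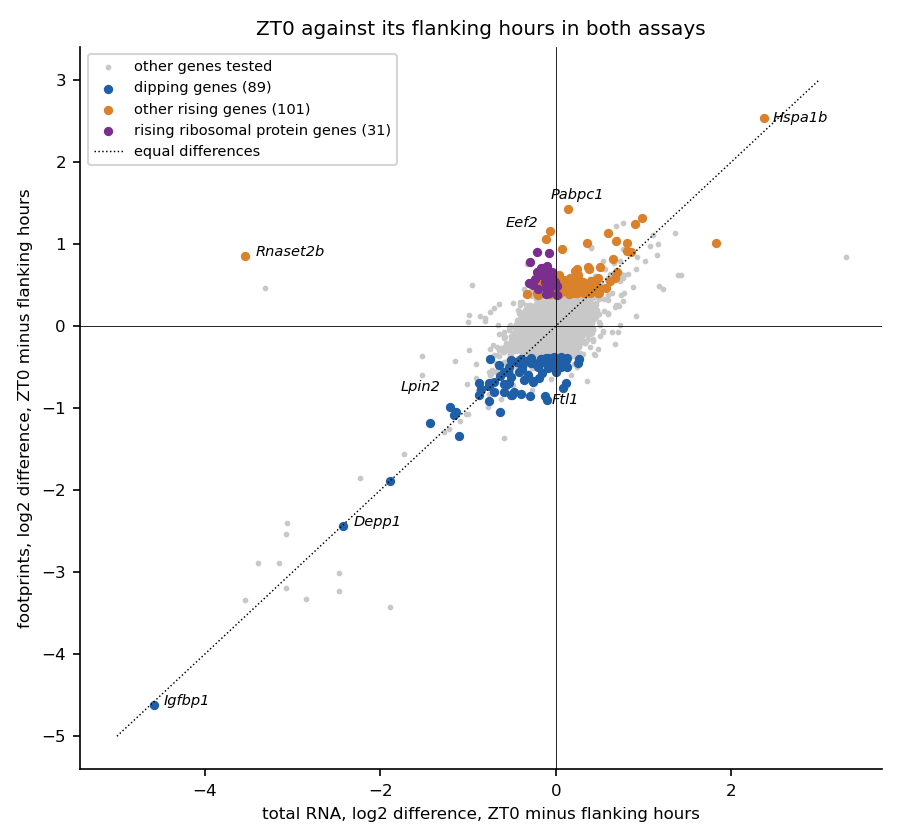
Log2 difference between ZT0 and its 4 flanking hours in total RNA (horizontal) and footprints (vertical) for the 5996 genes tested, 1 point a gene. The 89 dipping genes have a median of -0.50 in footprints and -0.32 in total RNA, while the 31 rising ribosomal protein genes stand above zero in footprints and below zero in total RNA, apart from Rpl4 and Rpl7 at 0.01.

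The widest dip was that of Igfbp1. It codes for a secreted binding protein of insulin-like growth factors that insulin represses, and held 2.30 and 11.3 RPKM in the ZT0 footprint libraries. The 8 flanking pools ranged from 19.2 to 343 with a median of 147. Both ZT0 pools therefore lay under every flanking pool, by a fitted 24.6-fold, and the gap was wide on both sides, with 270 and 343 RPKM at ZT22 and 78.7 and 223 at ZT2. Its transcript fell with it, from 11.2 to 169.6 RPKM in the flanking pools to 1.58 and 5.65, a 24.0-fold change (95% interval 8.29 to 69.3, limma adjusted p = 0.00806, and 0.0449 without ZT22). Depp1, a target of FOXO transcription factors, held 6.81 and 19.3 RPKM of footprints against 29.6 to 123, and its transcript fell 5.35-fold (adjusted p = 0.0384, limma, and 0.107 without ZT22).

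Of 26 tested genes of fasting and insulin action, 4 dipped and none rose, and 1 of 26 was called in total RNA. Among all genes 1.48% dipped and 0.5% were called in total RNA. Cyp4a14, a fatty acid hydroxylase induced through PPAR alpha, held 10.7 and 6.86 RPKM of footprints against 13.3 to 74.5. Its transcript was 3.70-fold lower without passing (adjusted p = 0.186, limma). Angptl4, the fasting-induced inhibitor of lipoprotein lipase, held 24.7 and 23.5 RPKM against 28.1 to 153, where ZT22 replicate 1 alone made the upper end. Sds, serine dehydratase of amino acid breakdown, was the narrowest of the 4 with 140 and 122 RPKM against 141 to 489. The list as a whole did not move one way. Its median footprint difference was -0.07 on the log2 scale against -0.01 over all genes, G6pc (glucose-6-phosphatase, of glucose release) stood at -1.29 and Ppp1r3b (a glycogen-targeting subunit) at 0.64. Without ZT22 among the flanks 3 of the 26 dipped, where 93 of all 5996 genes did. The list's median was -0.084 without ZT0 replicate 1 and -0.085 without ZT0 replicate 2.

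Other dipping genes with a called transcript were regulators and enzymes of several kinds. Pde4b, a cyclic AMP phosphodiesterase, held 2.79 and 3.72 RPKM of footprints against 6.47 to 12.1, and its transcript fell 2.15-fold (1.63 to 2.84, adjusted p = 0.0165, limma). Irf2bp2, a transcriptional co-repressor, held 10.0 and 11.9 against 16.5 to 35.6, with a transcript 2.71-fold lower (adjusted p = 0.0269, and 0.107 without ZT22, limma). Its footprints were lowest at ZT14, with ZT0 ranked 4 of 12 hours from the lowest. Lpin2, a phosphatidate phosphatase of lipid synthesis, held 11.4 and 12.1 against 17.2 to 37.6, and no library of any other hour went below 17.2. Its transcript fell 1.83-fold (1.504 to 2.23, adjusted p = 0.00806, and 0.057 without ZT22, limma). Srsf5, a splicing factor, stood at 94.2 and 70.4 against 126 to 182, with a transcript 1.41-fold lower (adjusted p = 0.0384, limma). Its footprints were lower still at ZT14 (57.0 and 57.5) and ZT16 (33.9 and 39.5). Frmd4b and Ddt, the latter a relative of the cytokine MIF, complete the 8 dipping genes called in total RNA, at 1.69-fold and 1.31-fold lower. In these genes footprints and transcript fell by like amounts, except that the footprint fold of Srsf5 was 1.80.

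Regulators and a carrier dipped over transcripts that did not pass, of which Txnip, Klf9 and Crebrf were named after their values were seen. Txnip, an arrestin that limits glucose uptake, held 45.5 and 47.4 RPKM of footprints against 56.8 to 159. Klf9, a transcription factor induced by glucocorticoids, and Crebrf, a regulator of CREB3, stood 1.41-fold and 1.58-fold below the flanks. Slc25a25, a mitochondrial ATP-Mg/phosphate carrier, held 26.4 and 39.0 against 46.3 to 113, Ip6k2 6.18 and 8.51 against 9.50 to 21.8, and Trp53inp1 9.16 and 10.3 against 13.1 to 22.6. Their transcripts were lower by like or larger amounts in part, 2.24-fold for Slc25a25, 2.31-fold for Ip6k2, 1.70-fold for Trp53inp1, 1.45-fold for Klf9, 1.39-fold for Txnip and 1.28-fold for Crebrf. None of these 6 passed in total RNA, where adjusted p ranged from 0.0808 for Ip6k2 to 0.433 for Txnip (limma). Arl4a, a small GTPase, held 11.0 and 9.45 against 12.9 to 34.4, but the 14 libraries of the other hours ranged from 6.26 to 12.4, so ZT0 lay among them.

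**Figure D2:**
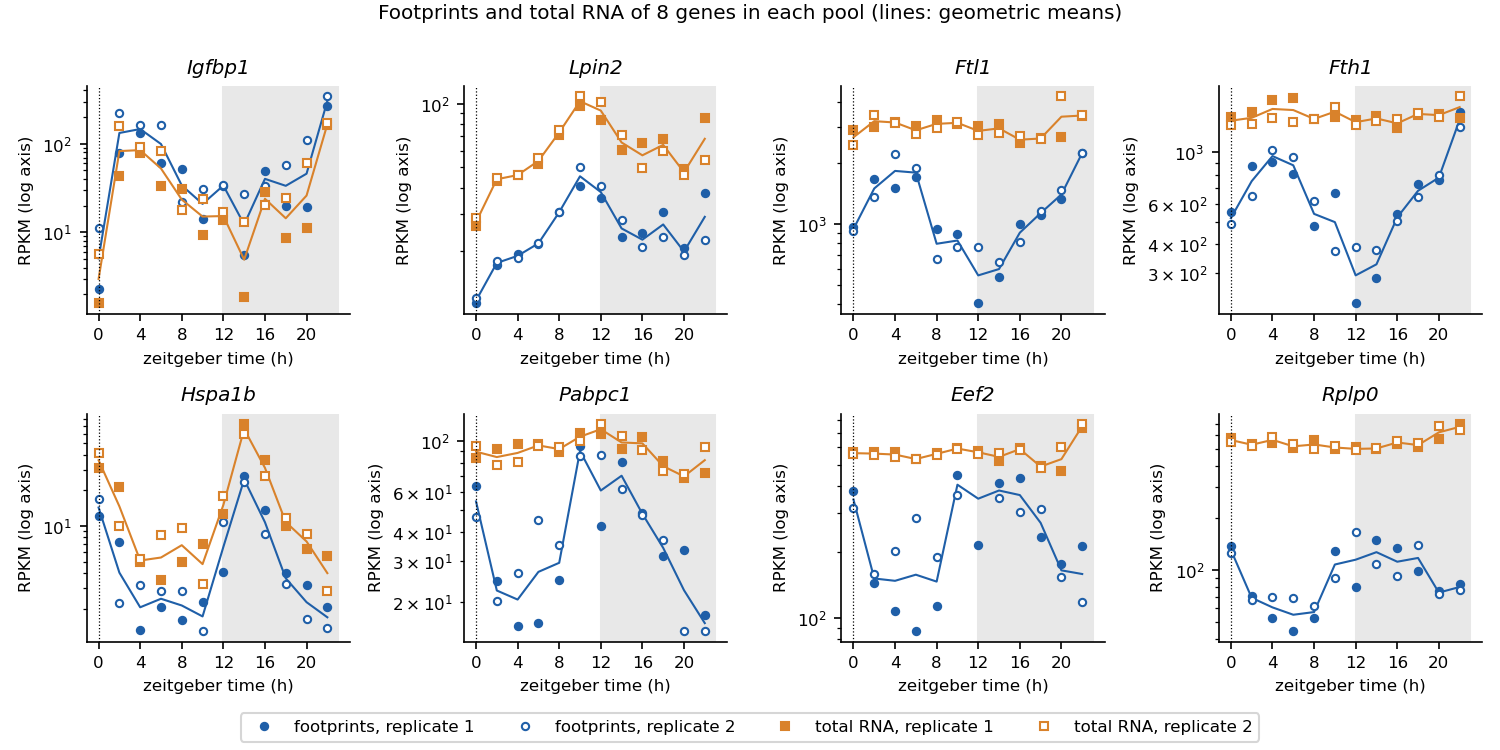
RPKM (log axis) of 8 genes against zeitgeber time, with footprints in blue and total RNA in orange. Filled marks are replicate 1, open marks replicate 2, lines geometric means, and the grey field the dark hours. Igfbp1 and Lpin2 are low at ZT0 in both assays, Ftl1 and Fth1 dip in footprints between high values at ZT22 and ZT2 to ZT6, and Pabpc1, Eef2 and Rplp0 rise at ZT0 in footprints over a level transcript.

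The contrast was chosen for the ferritin chains, so their dip and the counts that include them are a description and no finding of the contrast. Ferritin dipped in footprints over a steadier transcript. Ferritin stores iron in a shell of heavy (Fth1) and light (Ftl1) chains, and both transcripts hold the iron-responsive element. The 27 bases around that element were read from GENCODE M21 transcripts (GRCm38) and are shown because they are the sequence the ferritin chains share with other regulated mRNAs. The bulged C and the loop are in capitals, in sense orientation.
Ftl1, chr7:45459780-45459806, minus strand: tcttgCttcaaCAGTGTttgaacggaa
Fth1, chr19:9982733-9982759, plus strand: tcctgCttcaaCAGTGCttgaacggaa
Slc40a1, chr1:45925466-45925492, minus strand: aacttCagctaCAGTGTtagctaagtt
Alas2, chrX:150547459-150547485, plus strand: tggttCgtcctCAGTGCagggcaacag
The motif searched on the sense strand was a C, 5 stem bases, CAGTG with a base other than G after it, and 5 bases pairing with the stem (G-T allowed), starting within an annotated 5′ untranslated region. It was found in 13 of 5967 genes, of which none rose and 2 dipped, the ferritin chains for which the contrast was chosen.

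Ftl1 (ENSMUSG00000050708, chromosome 7, 45457944 to 45459884, GRCm38) held 963 and 924 RPKM of footprints at ZT0. The flanking pools ranged from 1326 to 2245 with a median of 1576. Fth1 (ENSMUSG00000024661, chromosome 19, 9980598 to 9985098) held 553 and 488 against 648 to 1484, with a median of 885. The fitted differences were 1.81-fold and 1.80-fold. For both chains every flanking pool was higher, ZT22 most of all, with 2245 and 2229 for Ftl1 and 1484 and 1282 for Fth1. Total RNA of Ftl1 was 2916 and 2449 at ZT0 against 2679 to 4253, 1.23-fold lower without passing (1.03 to 1.48, adjusted p = 0.254, limma). Total RNA of Fth1 was 1420.3 and 1314 against 1321 to 1740, 1.09-fold lower (0.939 to 1.26, adjusted p = 0.589, limma). The groups overlapped for both transcripts. The difference between the assays did not pass for either chain (limma interaction, adjusted p = 0.513 for Ftl1 and 0.406 for Fth1). Paired by lysate it did not pass either (limma, adjusted p = 0.234 and 0.168). Ferritin footprints went lower than at ZT0 elsewhere in the day, to 405 and 766 for Ftl1 and 223 and 389 for Fth1 at ZT12, so ZT0 was the 6th and 4th lowest of 12 hours. The departures of ZT0 from the fitted 24 h curve were -1.20 (Ftl1) and -1.19 (Fth1) log2 units, a notch in a high stretch from ZT20 to ZT6. Without the pools holding pancreatic transcripts the footprint differences were -1.02 and -0.99 (log2), against -0.86 and -0.85 with them. Reads of ferritin genes may be shared with processed pseudogenes, so their levels are uncertain.

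Other transcripts with a known iron-responsive element, described here for Slc40a1 and Alas2, did not meet the dipping rule. Slc40a1 (ferroportin, the iron exporter) held 64.0 and 53.7 RPKM of footprints against 46.6 to 112, a log2 difference of -0.31 with overlapping groups. Alas2, the erythroid enzyme of heme synthesis, stood at -0.18. Of 29 tested iron genes 2 dipped, none rose, and none was called in total RNA. The 2 were the ferritin chains, for which the contrast was chosen, and 1.48% of all genes dipped. The median log2 difference of the list was 0.00 in footprints and -0.09 in total RNA. Hamp, the hormone hepcidin that closes ferroportin, held 6333 and 2411 RPKM against 3433 to 12346, so its pools disagreed, and its log2 difference of -0.54 became 0.16 without ZT0 replicate 2. Alas1, the hepatic heme enzyme, held 234 and 169 against 63.4 to 221. Tfr2 and Trf, the sensor and carrier of serum iron, stood at 0.23 each.

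Several further genes dipped in footprints. Hist1h4b held 16.9 and 26.5 RPKM of footprints against 34.8 to 45.1, with total RNA at 23.7 and 17.8 against 17.2 to 29.2. Hist1h4c, another histone H4 gene, held 17.4 and 19.2 against 20.8 to 54.7, with total RNA 1.32-fold lower (adjusted p = 0.224, limma). The H4 genes are near-identical and their values are uncertain. Ptp4a1, a phosphatase, held 15.6 and 13.9 against 19.4 to 31.4, and Ufm1, a ubiquitin-like modifier, 49.1 and 58.4 against 67.2 to 83.1, while their transcripts stood at 0.08 and -0.01 log2 from the flanks. BC031181, 1 of the 4 genes that passed the stricter rule, held 90.9 and 81.6 against 117 to 153, with its transcript at 0.00. Stard4, a sterol carrier, was the 1 dipping gene among 25 of cholesterol synthesis, beside 1.48% of all genes, with 41.8 and 49.7 against 52.7 to 73.5. That count rested on the pools used, with 4 of 25 dipping when pools rich in pancreatic transcripts were left out. Over all 5996 genes 158 dipped in that setting. The list's median log2 difference was -0.16, and it was -0.30 without ZT0 replicate 2 and -0.02 without ZT0 replicate 1.

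Enzymes of glutathione conjugation and genes of antigen presentation also dipped. Gsta2 held 30.9 and 23.1 RPKM of footprints against 44.1 to 84.6, and Gstm1 1919 and 1643 against 2158 to 2749. Of 26 xenobiotic genes 2 dipped (Gstm1 and the cytochrome Cyp3a25), beside 1.48% of all genes, and none rose, with a median log2 difference of -0.15. The list leaves out other members of these families, among them Gsta2 and Cyp2c38, which dipped, and Cyp2d40, which rose (0.67 log2). The list's median was -0.23 without ZT0 replicate 1 and -0.09 without ZT0 replicate 2. The 4 tested genes of the MHC class II pathway, a set put together after its values were seen, all dipped. H2-Eb1 held 20.2 and 18.4 RPKM against 22.9 to 57.9, H2-Ab1 28.9 and 24.8 against 31.4 to 70.0, H2-Aa 42.3 and 35.8 against 42.4 to 109, and the invariant chain Cd74 123 and 116 against 128 to 281. For all 4 genes footprints were lowest at ZT16, with ZT0 ranked 2 of 12 hours from the lowest. The 4 transcripts also lay under all flanking pools, 1.56-fold to 1.83-fold, with adjusted p from 0.179 to 0.268 (limma). Markers of other liver cells moved beside them. Of 8 tested stellate and fibroblast markers 2 dipped, beside 1.48% of all genes. They were Rgs5 (20.8 and 18.2 against 25.1 to 40.5) and Lrat (12.0 and 12.3 against 12.9 to 19.4). The summed list was 419 and 418 RPKM in ZT0 footprints against 445 to 491 in the flanks. In total RNA it overlapped the flanks, with 264 and 277 against 269 to 431. Summed endothelial markers were 346 and 347 against 350 to 391 in footprints, and 282 and 274 against 298 to 375 in total RNA. Kupffer cell markers did not move one way, as given above. In bulk liver, fewer cells of a type and less RNA per cell cannot be told apart.

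The rising genes were led by chaperones and by the translation machinery. Hspa1b, the inducible chaperone HSP70, held 12.1 and 17.0 RPKM of footprints at ZT0. The flanking pools ranged from 1.33 to 7.31 with a median of 2.15, and ZT2 replicate 1 was the highest of them. Its transcript rose from 2.85 to 21.4 RPKM in the flanks to 31.0 and 41.8, a 5.18-fold change (3.03 to 8.85, adjusted p = 0.00806, and 0.0449 without ZT22, limma). A second high stretch came at ZT14, with 26.3 and 23.4 RPKM of footprints, so that ZT0 ranked 11 of 12 hours from the lowest. Hspa1b has a near-identical neighbour, Hspa1a, and its level is uncertain.

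Of 26 tested heat shock genes 4 rose in footprints (Hspa1b, Hspa8, Bag3 and Dnajb1) and none dipped, and 4 were called higher in total RNA (Hspa1b, Dnajb1, Dnajb4 and Dnaja1). Among all genes 2.2% rose and 0.183% were called higher in total RNA. Hspa8, the constitutive HSP70, held 768 and 779 RPKM of footprints against 235 to 594. Its transcript was 1.51-fold higher (adjusted p = 0.107, limma) with ZT2 replicate 1 above both ZT0 pools. Bag3, a co-chaperone of selective autophagy, held 32.6 and 33.3 against 11.0 to 24.2. Dnajb1, an HSP40, held 21.3 and 25.1 against 9.92 to 17.9, and its transcript rose 1.76-fold (adjusted p = 0.0269, and 0.0646 without ZT22, limma). The transcript of Dnajb4 rose 1.70-fold (adjusted p = 0.00666, limma) and that of Dnajb9, an ER co-chaperone outside the list, 1.89-fold (adjusted p = 0.00806), with footprints at 0.31 and 0.70 log2, short of the rising rule. The list's median was 0.07 in footprints and 0.12 in total RNA. Hsp90aa1 stood at 0.02 and Hspd1 and Hspe1 of the mitochondria at 0.09 and -0.21, so the list did not move as a whole. Ccdc117 was the other rising gene called in total RNA, 1.62-fold higher (adjusted p = 0.0468, and 0.107 without ZT22, limma).

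Of 79 tested ribosomal protein genes 31 rose in footprints and 1, Rpl36, dipped, beside 2.2% rising among all genes. The list's median log2 difference was 0.43 in footprints, with 77 of 79 above zero, and -0.11 in total RNA, with 11 of 79 above zero. The genes of a list share the same pools, so these counts are not replicates of the hour. Over all genes these medians were -0.01 and -0.01. None of the 79 was called in footprints, and Rpl29 was called lower in total RNA (log2 difference -0.41, adjusted p = 0.0204, limma). Rplp0, of the ribosomal stalk, held 137 and 125 RPKM of footprints against 53.1 to 83.3, with total RNA at 576 and 551 against 524 to 696. Rplp1 held 188 and 215 against 88.5 to 149, Rps12 96.4 and 82.8 against 37.7 to 71.7, and Rpl37 467 and 365 against 203 to 339. The groups were apart in footprints for all 4 genes and overlapped in total RNA for Rplp0, Rps12 and Rpl37, while Rplp1 total RNA was lower than in every flanking pool (966 and 952 against 998 to 1508). Without the pools holding pancreatic transcripts 23 of the 79 rose, with a median of 0.32, and without ZT22 in the flanks 38 rose. Over all 5996 genes 176 and 140 rose in these settings. The list's median was 0.51 without ZT0 replicate 2 and 0.34 without ZT0 replicate 1.

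Of 41 tested translation factors 6 rose and none dipped, beside 2.2% rising among all genes. The list's median log2 difference in footprints was 0.14, and it was 0.16 without ZT0 replicate 2 and 0.09 without ZT0 replicate 1. Pabpc1, the poly(A)-binding protein, held 63.6 and 46.7 RPKM of footprints against 14.9 to 33.7. Its transcript stood at 84.2 and 95.3 against 68.6 to 97.2 (log2 difference 0.14, adjusted p = 0.523, limma). Eef2, which moves the ribosome along by a codon, held 380 and 316 against 108 to 214, over a transcript of 570 and 558 against 467 to 765. Eef1a1, which delivers aminoacyl-tRNA, held 1559 and 1176 against 680 to 1153, Eif4b 48.8 and 44.7 against 25.8 to 39.4, Eef1g 75.4 and 67.1 against 38.5 to 59.5, and Tpt1 445 and 348 against 241 to 330. Pabpc4, a second poly(A)-binding protein outside the list, held 9.72 and 8.92 against 2.96 to 6.03. None of these 7 transcripts passed in total RNA. Processed pseudogenes of ribosomal protein and elongation factor genes may take a share of the reads.

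**Figure D3:**
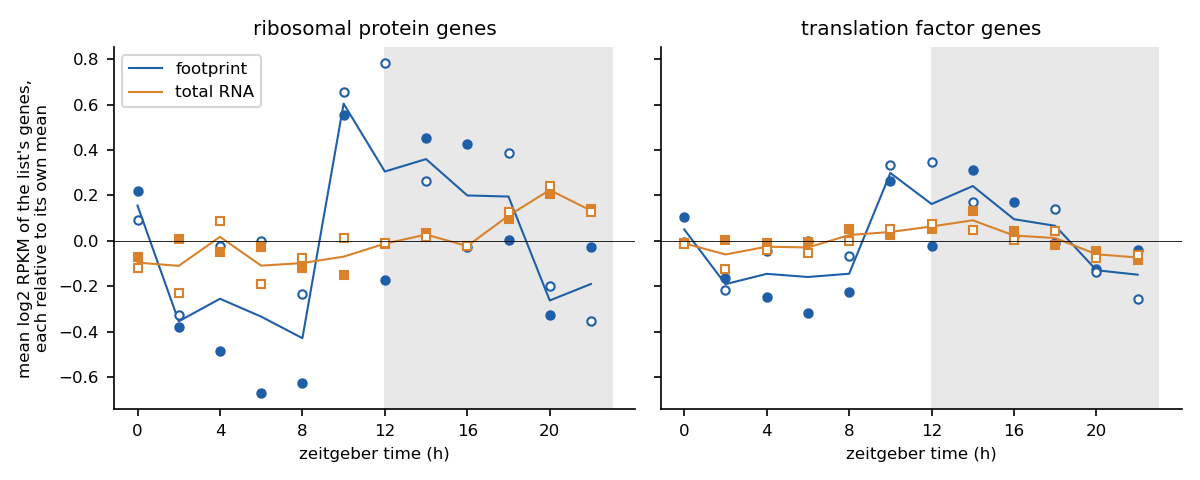
Mean log2 RPKM of the 79 ribosomal protein and 41 translation factor genes, each gene relative to its own mean over 24 libraries, in footprints (blue) and total RNA (orange). Filled marks are replicate 1, open marks replicate 2, and lines hourly means. Ribosomal protein footprints stand at 0.22 and 0.09 at ZT0 between values of -0.35 to -0.03 at ZT22 and -0.38 to -0.33 at ZT2.

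Over the day, ribosomal protein footprints had a second and higher stretch from ZT10, where the mean level of the list was 0.56 and 0.65 log2 units over its daily mean, against 0.22 and 0.09 at ZT0. The flanking pools ranged from -0.49 to -0.02. The total RNA level of the list moved less and in another order, with -0.07 and -0.12 at ZT0 and 0.21 and 0.24 at ZT20. Pools of 1 hour disagreed in footprints, with -0.17 and 0.78 at ZT12, -0.67 and 0.001 at ZT6, and 0.43 and -0.03 at ZT16. The flanking pools of ZT4 stood at -0.49 and -0.02. The list as a whole thus differed between pools of 1 hour by amounts like its difference at ZT0. ZT0 was accordingly the highest hour for Rplp0 and Rplp1 but ranked 8 of 12 from the lowest for Eef2 and 9 for Pabpc1.

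The starts of transcripts were read for the pyrimidine tract. A start was counted when an annotated protein-coding transcript of the gene began on its sense strand with C followed by at least 4 pyrimidines. Such starts were found in 23 of 132 rising genes (17.4%), in 5 of 88 dipping genes (5.68%) and in 364 of 5967 genes in all (6.10%). Among the rising ribosomal protein and translation factor genes it was 12 of 37, and among the other rising genes 11 of 95. Rpl36, the 1 ribosomal protein gene that dipped (-0.64 log2), also has such a start. The share among ribosomal protein genes that did not rise was not counted, so the tract is not set apart from membership of the list. The first 20 bases are shown for 4 rising genes of both translation lists with such a start and a wide footprint difference, with the tract in capitals (GENCODE M21 transcripts, GRCm38).
Pabpc1, chr15:36608954-36608973, minus strand: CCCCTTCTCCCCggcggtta
Rpl37, chr15:5116645-5116664, plus strand: CTCTTCCggtctctttggcc
Rps18, chr17:33955644-33955663, minus strand: CTCTTCCacaggaggcctac
Rps9, chr7:3704038-3704057, plus strand: CTCTTTgtctcgggcctgag
Annotated starts are not always the capped base, so a gene without a match may still carry a tract.

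Among the other 95 rising genes, footprints and transcripts leaned the same way in 80, with a median log2 difference of 0.47 in footprints and 0.23 in total RNA. Inhbe, a liver-secreted activin subunit, held 53.4 and 52.3 RPKM of footprints against 11.6 to 33.6, with its transcript 1.98-fold higher (1.28 to 3.06, adjusted p = 0.152, limma). Pfkfb3, which makes the activator of glycolysis fructose 2,6-bisphosphate, held 6.35 and 4.28 against 1.52 to 3.31. For Pfkfb3 ZT0 ranked only 7 of 12 hours from the lowest. Among these 95 genes were the liver transcription factors Hhex, Foxa2 and Gata4, the last 2 chosen after their values were seen. Of 14 tested hepatocyte markers none met the rising rule and 10 stood below zero, with a median footprint difference of -0.13 log2. Hhex held 74.3 and 48.7 against 17.6 to 42.3, Foxa2 24.2 and 19.3 against 9.11 to 17.5, and Gata4 13.5 and 11.6 against 6.14 to 10.8. For all 3 the ZT0 mean was the highest of the 12 hours, and none passed in total RNA. Id3, an inhibitor of helix-loop-helix factors, held 334 and 284 against 97.5 to 244. H2afx, a histone variant of the DNA damage response, held 30.7 and 31.0 against 10.2 to 26.2 over a transcript of 5.86 and 6.65 against 3.64 to 10.5. Slc22a7, an organic anion transporter, held 33.8 and 51.0 against 6.66 to 29.4, and Mup16, 1 of a family of near-identical major urinary proteins whose reads are uncertain, 3132 and 2550 against 420 to 2198. Rnaset2b, which has a near-identical paralog, is uncertain, since it held 424 and 450 RPKM of footprints while its total RNA was listed at 0 in both ZT0 libraries.

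Sf3a1, of the U2 particle, held 10.8 and 10.4 against 7.34 to 8.36, Safb 12.9 and 14.6 against 7.88 to 10.8, Srrm2 27.3 and 26.3 against 17.3 to 23.1, and Clk1, a kinase of splicing factors, 13.0 and 13.3 against 3.12 to 12.1. Sf3a1 and Safb were the 2 rising genes that passed the stricter rule. Itga5, a fibronectin receptor chain, held 14.8 and 14.4 against 7.48 to 12.0, above every one of the 22 other footprint libraries. The complement protein C9 was the 1 rising gene of 44 secreted plasma proteins, beside 2.2% of all genes, with 621 and 641 against 408 to 576. The list's median log2 difference was 0.05, and it was 0.09 without ZT0 replicate 1 and -0.05 without ZT0 replicate 2.

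The remaining lists held few or no members. Among all genes 1.48% dipped, 2.2% rose and 5.75% lay below all flanking pools. Of 74 nuclear genes of oxidative phosphorylation 1 rose (Atp5g2) and none dipped, although 15 of 74 lay below all flanking pools by less than 1.3-fold, and the list's median was -0.08. Of 33 proteasome genes 6 lay below all flanking pools with a median of -0.08. Of the 14 tested genes in the histone list 1 dipped (Hist1h4c) and 2 rose (H2afx and Hist1h2bc). The list leaves out other tested histone genes, among them Hist1h4b, which dipped, and Hist1h1a, which rose with 7.48 and 9.27 RPKM against 4.24 to 7.22. No gene dipped or rose among 12 mitochondrially encoded, 12 core clock, 21 ER chaperone, 15 ATF4 target, 12 immediate early, 18 lipogenesis, 15 bile acid, and 21 selenoprotein and antioxidant genes, whose median footprint differences ran from -0.43 (immediate early) to 0.13 (ATF4 targets). These zeros rested on the pools used. Without the pools holding pancreatic transcripts 5 ER chaperone genes rose, and 3 immediate early, 2 core clock and 1 mitochondrially encoded genes dipped. Over all 5996 genes 158 dipped and 176 rose in that setting, with fewer flanking pools to clear. The immediate early median was -0.62 without ZT0 replicate 2 and -0.10 without ZT0 replicate 1. The clock repressor Nr1d1 held 0.914 and 1.46 RPKM of footprints against 0.726 to 42.0, an overlap with the night pools. Its transcript overlapped them too, with 0.440 and 0.771 RPKM against 0.953 and 0.595 at ZT20. Against the mean of all flanks, which include 17.0 and 23.1 at ZT4, the transcript was 4.70-fold lower (adjusted p = 0.00666, limma). That of Dbp was 2.87-fold lower than the flanks (adjusted p = 0.00666, limma).

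Dipping genes were short. Their median coding length was 690 bases, with quartiles of 469 and 1076 (88 genes with a length), against 1152 over all genes, with quartiles of 714 and 1737. Of the dipping genes 37.5% coded for under 600 bases, against 17.9% of all genes. The rising genes outside both translation lists had a median of 1395 bases, and the rising ribosomal protein and translation factor genes one of 582. Over 5967 genes, Spearman's rho between coding length and the log2 difference at ZT0 was 0.26 in footprints and 0.15 in total RNA, a description across genes of the same libraries. From the shortest to the longest quintile of genes the median footprint difference went from -0.08 to 0.06 and that of total RNA from -0.05 to 0.03. The shortest quintile (111 to 630 bases) held 37 dipping and 34 rising genes and the longest 5 and 26. The GC content of the coding sequence had a median of 49.4% in dipping, 54.9% in rising and 52.0% in all genes. The part of length or GC content in the libraries was not tested.

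**Figure D4:**
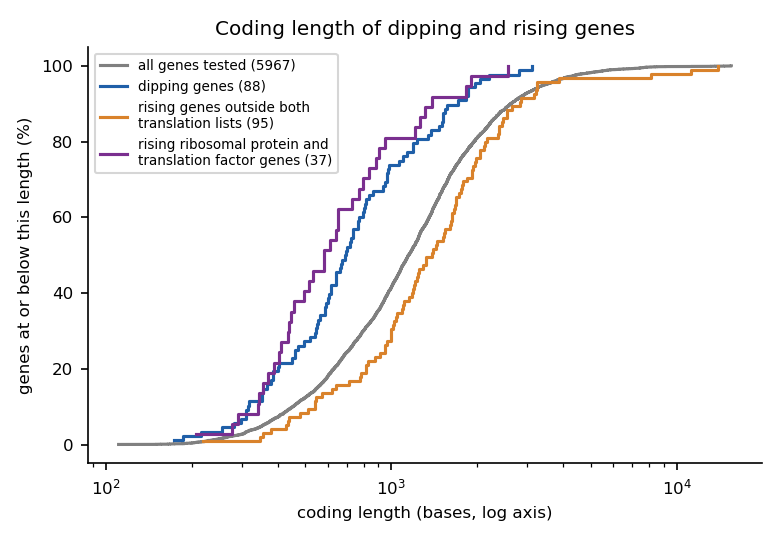
Cumulative share of genes (percent) by coding length (bases, log axis) for all genes tested, dipping genes, and rising genes split by membership of both translation lists. The dipping curve lies left of all genes, with a median of 690 against 1152 bases, and the other rising genes lie right of it at 1395.

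The transcripts of dipping genes mostly stood lower as well. Of the 89 dipping genes 71 (79.8%) were also lower in total RNA, with a median of -0.32 log2 against -0.50 in footprints, and 30 lay under all 8 flanking pools. Of the 132 rising genes 84 (63.6%) were higher in total RNA, with medians of 0.13 and 0.53. For the 37 rising ribosomal protein and translation factor genes it was 4 of 37. Over all genes the signs matched in 58.5%, and both assays share their lysates. ZT0 was the lowest hour of the day for 47 of the 89 dipping genes and the highest for 47 of the 132 rising ones, so for 42 and 85 genes another hour went further.

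As a description, the libraries of the contrast were also split by replicate number, with genes picked in 1 replicate and read in the other. The genes so picked are not the 89 and 132 members, which were chosen with both replicates. The split is therefore no test of the members. It also left out the curve condition, so genes with an ordinary daily peak or trough near ZT0 can repeat in it. Agreement in the split is thus no measure of a shape particular to ZT0. Genes picked from replicate 1 alone as lower at ZT0 (280 genes under all 4 flanking pools of that replicate number and at least 1.3-fold lower on average) were lower in replicate 2 in 219 cases (78.2%), where 51.8% of all genes were, and those picked as higher were higher in 274 of 303 (90.4%, against 48.2%). Picked from replicate 2, 181 of 213 (85.0%) were lower and 205 of 273 (75.1%) higher in replicate 1. The median difference in the pools not used was -0.22 and -0.29 for lower and 0.32 and 0.27 for higher genes, narrower than the 1.3-fold of the rule. Without the pools holding pancreatic transcripts, 158 genes dipped and 176 rose, among them 84 of the 89 and 108 of the 132. That setting drops both ZT2 pools and ZT4 replicate 1, so fewer flanking pools had to be cleared. Members stayed outside the remaining flanks by construction, and only the fold and curve conditions could fail.

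ZT0 was not alone in setting genes apart from neighbouring hours. The same rule, centred on each of the other hours with its own flanks, gave 100 dipping and 183 rising genes at ZT16, 102 and 67 at ZT22, 63 and 58 at ZT10, 54 and 55 at ZT12 and 51 and 52 at ZT14. It gave 8 to 37 in each direction at ZT2, ZT4, ZT6, ZT8, ZT18 and ZT20. Neighbouring contrasts share libraries. Members near the fold limit differed little from those beyond it. Ociad2 dipped at 1.301-fold while Pcbd1 was left out at 1.298-fold, and Rpl4 rose at 1.302-fold while Tmem186 was left out at 1.298-fold.

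**Figure D5:**
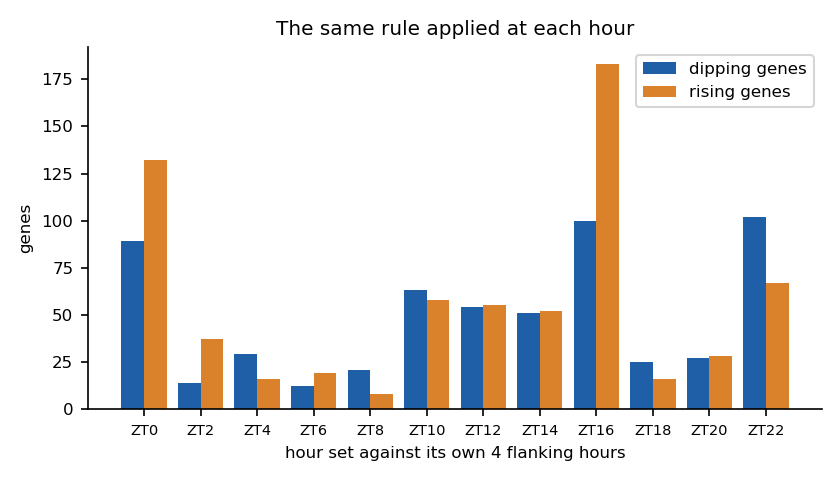
Number of genes, of 5996 tested, whose footprints dip (blue) or rise (orange) at each hour against its own 4 flanking hours under the same rule. ZT0 has 89 and 132 genes, and ZT16, with 100 and 183, has more in both directions.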

How the data were processed

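Ribosome footprints and total RNA were measured in 24 libraries each, from the same lysates. The values are RPKM per gene as deposited by the authors. The submitters' processing notes name CASAVA 1.82, cutadapt, Bowtie2 2.2.1, TopHat2 2.0.11, Cufflinks 2.2.1 and edgeR with build GRCm38.p2. The sources used here do not state the gene models, the order of steps or the scaling. Depth is an estimate from the step that 1 read makes in low values, with 72.9 to 84.1% of these falling on whole reads within 0.04 (8% by chance).

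Log2(RPKM + 0.1) was fitted with limma 3.58.1 (trend, R 4.3.3), hour as a factor over the 24 libraries of an assay, with Benjamini-Hochberg adjustment over 5996 genes with a mean RPKM of at least 5 in both assays. Fold changes are on that scale and understate low genes. Footprint against total RNA was an interaction over 48 libraries. Departure at ZT0 was a term beside a 24 h cosine and sine. The fits were tested on simulated data. Coding lengths, transcript starts and untranslated regions came from GENCODE M21 (GRCm38), with Python 3.11.15 and pandas 2.3.3. The 48 mice made 24 pools of 2, so replicates are pools of different animals.

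Named genes were the ferritin chains, the 15 dipping and 15 rising genes of largest fold, the iron list, up to 4 dipping or rising members of each other list, and the 5 lowest and 5 highest called in total RNA. Others, such as Txnip, Klf9, Crebrf, Ptp4a1, Rgs5, Lrat, Foxa2, Gata4, Clk1, Rnaset2b, Eef1g and Tpt1, were chosen after their values were seen. The members and lists were chosen with earlier results of these data known, and the contrast was chosen for the ferritin chains. Both assays of a pool share a lysate, and their deviations from the hour's mean correlated at r of 0.264 to 0.801 over the hours, so they were also paired by pool. Alternatives were the pseudocount, the filter, centring, the block, single pools, pools with pancreatic transcripts, smaller fits and other flanks. The flanks without ZT22 were chosen after seeing the data. Some items are not reported here.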

Additional observations from a re-analysis of the deposited data

Results flagged for a closer look

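Among 150 groups of 8 flanking pools checked, 18 held a pool whose gap to its nearest neighbour exceeded Dixon's 95% critical value (0.526 of the range), where chance gives about 1 in 20. Most of these pools were of ZT22. In ZT22 replicate 1, Angptl4 stood at 153 RPKM in footprints (next pool 73.6) and 135 in total RNA (54.6), and Lpin2 at 37.6 in footprints (22.6) and 85.6 in total RNA (54.3). In ZT22 replicate 2, Sds stood at 489 RPKM in footprints (262) and 367 in total RNA (200), Gsta2 at 51.8 in total RNA (34.4), Gstm1 at 1296 in total RNA (999.8), and the hepcidin paralog Hamp2 at 545 in footprints (191). Slc11a2, an iron importer, was low there at 7.02 RPKM in footprints (10.2), and Steap3, a ferric reductase, stood at 19.3 (15.9).

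In ZT2 replicate 1, the chaperone Hspa1b stood at 7.31 RPKM in footprints (next pool 3.17) and 21.4 in total RNA (10.1), and Hspa8 at 1030.2 in total RNA (666). In ZT20 replicate 1, Hamp stood at 5335 RPKM in total RNA (2402), Alas1 at 221 in footprints (129.5) and Stard4 at 66.1 in total RNA (57.8). Hist1h4c stood at 54.7 RPKM in footprints of ZT2 replicate 2 (36.5). No explanation of these pools was tested.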

How the results depend on the processing

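Of 1551 footprint differences of 75 named genes under the alternatives, 22 moved by more than the spread of replicates and 46 had the other sign. The latter belonged to 14 genes of the iron list, none of them dipping or rising, and all reported at 0.162 log2 or less in size apart from Hamp. The counts of calls did depend on the settings. The 10 genes called lower in footprints became 4 with a mean RPKM of at least 20, 4 without ZT22, 0 with the 10 pools as 2 groups and 21 with hour as a factor in those pools, and 0 to 9 with 1 pool left out. The 9 called higher became 1, 4, 0, 15 and 0 to 8 in that order, 4 with ZT22 and ZT2 as flanks and 5 with the replicate block. The 19 called lower in total RNA became 37 without the pools holding pancreatic transcripts, 30 with ZT22 and ZT2 as flanks, 4 without ZT22, 0 in both fits to 10 pools, and 0 to 27 with 1 pool left out. The 11 called higher became 26, 37, 2, 0 and 0 to 31, and 7 at a mean of at least 1 or 20. The highest counts came without ZT2 replicate 1 and the 0 without either ZT0 pool. The 0 efficiency calls became 1 with hour as a factor in 10 pools, 1 with ZT22 and ZT2 as flanks, and 0 to 1 with a pool left out. The 18 departures from the curve became 6 at a mean of at least 20, 3 with a 12 h term and 0 to 61 with a pool left out (61 without ZT2 replicate 1). Dipping genes numbered 89, then 173 at a mean of at least 1, 46 at 20, 158 without the pancreatic pools and 83 to 251 with a pool left out. Rising genes numbered 132, then 225, 56 and 119 to 255. The ends of 251 and 255 came without ZT0 replicate 2, and without ZT0 replicate 1 there were 162 and 214. Fewer genes tested, fewer flanking pools to clear, or 1 ZT0 library to lie outside the flanks, account by construction for part of this. Otherwise the cause was not tested.

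The replicate numbers did not pair pools across hours (r from -0.558 to 0.371, 22 of 66 over 0.1), and with the replicate block footprint calls were 7 lower and 5 higher, total RNA calls 16 and 9, and members unchanged in number.

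Uncalled total RNA differences (log2) near 0 changed sign. Leaving out 1 pool at a time took Hist1h4b from -0.31 to 0.10, H2afx from -0.043 to 0.18, Aco1 from -0.0044 to 0.050, Slc11a2 from -0.074 to 0.065, Hmox1 from -0.54 to 0.028. It took Steap3 from -0.13 to 0.0051, Slc39a14 from -0.22 to 0.22, Slc39a8 from -0.12 to 0.044 and Pcbp2 from -0.13 to 0.011. Without the pancreatic pools the difference was -0.073 for H2afx, -0.0047 for Aco1, 0.070 for Slc11a2 and 0.043 for Slc39a14. Without ZT22 it was 0.040 for Eef2, -0.068 for H2afx, 0.028 for Tfr2, 0.020 for Hfe, 0.035 for Steap3 and 0.0069 for Slc39a14. With ZT22 and ZT2 as flanks it was 0.045 for Hist1h4b, -0.0084 for Aco1 and -0.016 for Eif4b. With libraries centred it was 0.0022 for Slc11a2 and 0.0053 for Slc39a14.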
